A study of Mus musculus with 6 samples.

Results

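The desmosome genes described here are 10 mouse genes that were chosen by symbol: the cadherins Dsg2 and Dsc2, the armadillo proteins Jup, Pkp1, Pkp2, Pkp3 and Pkp4, the plakins Dsp and Ppl, and the membrane protein gene Perp. All 10 were found among the 23238 gene symbols of the deposited counts, and 9 passed the filter on low counts. Expression was read at transcript 3′ ends in 6 libraries of 129/Ola mouse embryonic stem cells. A stable EGFP line gave 3 of them, and a stable EWS-OCT-4 line, which makes OCT4A joined to EWS and to GFP, gave the other 3. The labels name the parent cells Niwa, and all cells were kept in LIF medium with 1 µg/ml doxycycline, which turns down their own OCT-4. No library without doxycycline is part of the design, so higher and lower always mean the EWS-OCT-4 line set against the EGFP line. The labels do not say whether either line is 1 clone, what promoter drives the transgene, or whether replicates are independent cultures. The spread that p-values measure here may therefore be technical.

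Desmosomes are spot-like junctions that fasten the intermediate filaments of one cell to those of its neighbour. Desmogleins and desmocollins bridge the gap between the cells, plakoglobin and the plakophilins bind their tails, and desmoplakin ties this plaque to keratin, or to desmin in heart muscle. In the early mouse embryo desmosomes first form in the trophectoderm, the outer epithelium that gives rise to the trophoblast.

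Each library held 10978025 to 14935887 counts, and 3 counts, taken as the floor, stood for 0.195 to 0.277 CPM. Levels below are CPM (counts relative to library size) scaled by the trimmed mean of M-values (TMM), with mean ± SD over the 3 libraries of a line. Replicate 3 differed most within each line: a chi-square per degree of freedom over genes was 25.3 to 34.2 in pairs with replicate 3 and 3.96 and 4.17 between replicates 1 and 2. For Pou5f1, the gene of OCT-4, EGFP libraries had 5, 13 and 10 counts and EWS-OCT-4 libraries had 18, 21 and 36. The cell type in the labels was checked against marker lists. All 8 stem cell markers were higher in the EWS-OCT-4 line. Their summed level was 267 to 331 CPM in the EGFP libraries and 4645 to 5175 CPM in the EWS-OCT-4 libraries. Pou5f1 is 1 of the 8, and the EWS-OCT-4 line also carries OCT4A in its transgene. Whether reads of the transgene are among the Pou5f1 counts cannot be told from these counts. The Pou5f1 call was lost without EWS-OCT-4 replicate 3 (adjusted p = 0.0542 in edgeR's test), where 7 were called higher. All 8 trophoblast markers were lower, with a summed level of 1997 to 2221 CPM in the EGFP libraries and 238 to 269 CPM in the EWS-OCT-4 libraries, and none was without a count in either line. The stem cell label was thus met by lower marker levels in the EGFP line than in the EWS-OCT-4 line.

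Most desmosome genes were lower in the EWS-OCT-4 line. Of the 9 members tested, 8 fell, 1 (Pkp4) rose and 0 missed an adjusted p of 0.05 in edgeR's quasi-likelihood test. Over all 13467 genes tested, 67.4% passed in either direction, 34.1% as lower and 33.3% as higher. The median log2 fold change of the 9 members was -1.82, and that of all tested genes was -0.0042. The 3 libraries of the EWS-OCT-4 line lay wholly below those of the EGFP line for 8 members and wholly above for 1. Of all tested genes 36.7% and 36.0% separated in these directions, 72.7% in all. A call with a fall of at least 2-fold was made for 7 members and for 23.6% of tested genes. Because the RNA came from whole cultures, fewer cells of a type and less RNA per cell cannot be told apart. The trophoblast markers moved in the same direction as these 8 members, and their part in the result was not tested.

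**Figure D1:**
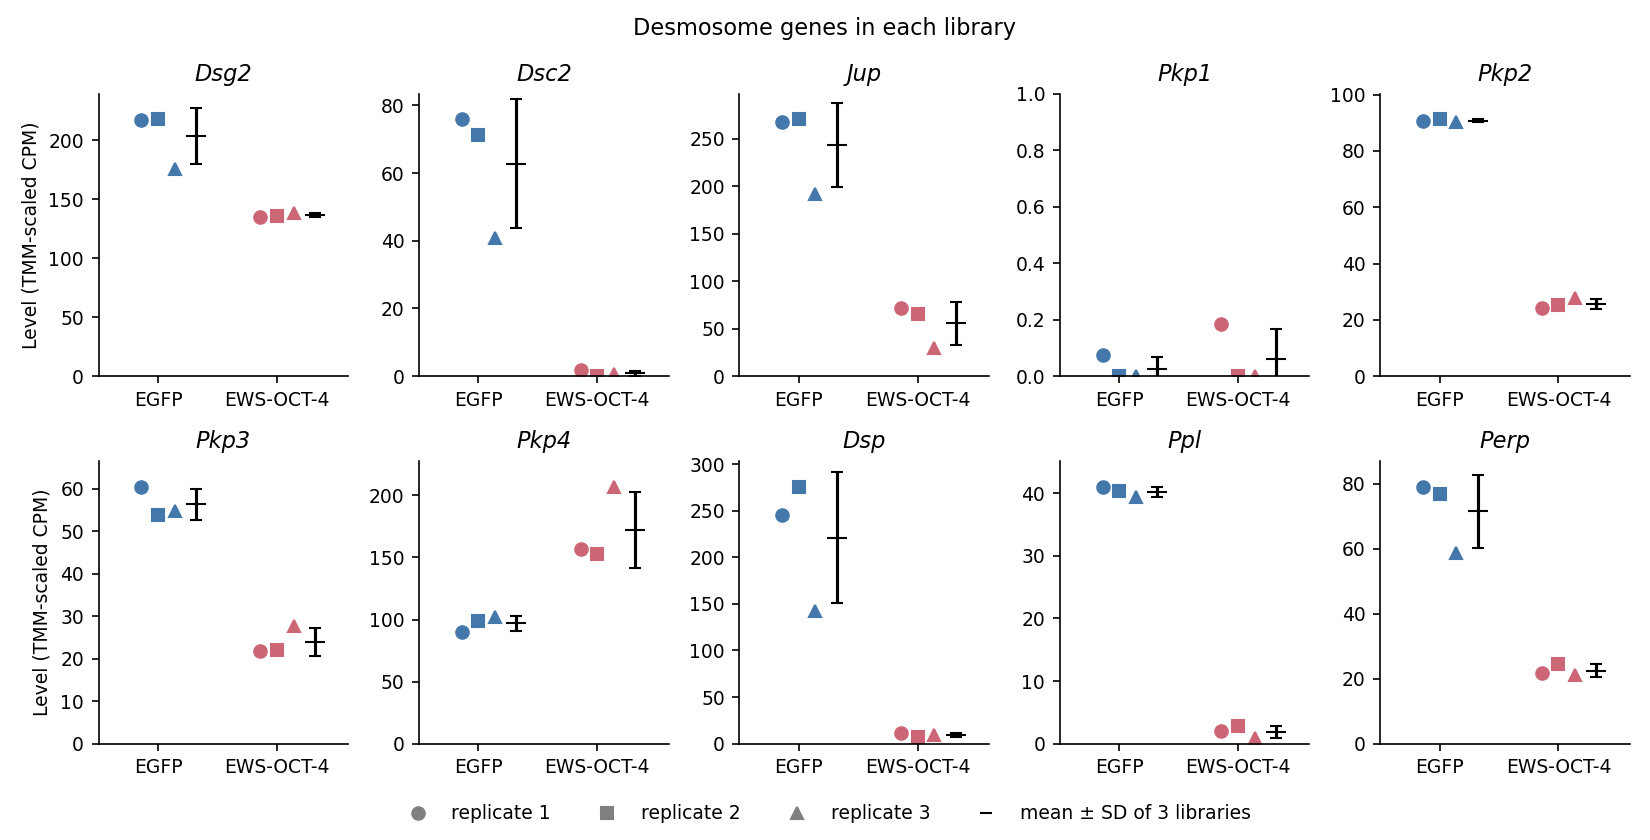
Level of each desmosome gene (TMM-scaled CPM, linear axes that start at 0) in the 3 EGFP and the 3 EWS-OCT-4 libraries, with the marker shape giving the replicate number and black bars the mean ± SD. The lines do not overlap for any gene but Pkp1, whose axis ends at 1 CPM, and Pkp4 is the one gene with the EWS-OCT-4 libraries on top.

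Both cadherins of the desmosome fell, by fold changes that lay far apart. Dsc2, the desmocollin of simple epithelia and heart, stood at 75.9, 71.3 and 40.8 CPM in the EGFP libraries and at 1.75, 0.185 and 0.588 CPM in the EWS-OCT-4 libraries. EGFP replicate 3 was the lowest of its line, and EWS-OCT-4 replicate 1 held 19 of the 28 counts of its line, but the lines did not overlap. The mean went from 62.7 ± 19.1 to 0.842 ± 0.814 CPM, a log2 fold change of -6.21 (SE 0.48, adjusted p = 2.0e-06), and 1.87% of tested genes had a lower value. Without EWS-OCT-4 replicate 1 the log2 fold change of Dsc2 was -7.27.

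Dsg2, the most widely expressed desmoglein, fell by less than 1.5-fold. Its level was 217, 218 and 176 CPM in the EGFP libraries and 135, 136 and 138 CPM in the EWS-OCT-4 libraries. The EWS-OCT-4 libraries were nearly equal, with an SD of 1.64 CPM, and EGFP replicate 3 was again the lowest of its line. The log2 fold change was -0.58 (SE 0.12, adjusted p = 0.0019), or 1.49-fold. Tested against a change of 1.5-fold, Dsg2 did not pass (adjusted p = 0.41), and over all 15 alternatives its adjusted p ran from 3.7e-08 to 0.41.

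Both cadherins lie in 1 cluster on chromosome 18, which in GENCODE M21 (GRCm38, the assembly of mm10) spans 643592 bases and holds 9 protein-coding genes in the order Dsc3, Dsc2, Dsc1, Dsg1c, Dsg1a, Dsg1b, Dsg4, Dsg3 and Dsg2. The other 7, mainly genes of stratified epithelium such as epidermis, did not pass the filter on low counts. For Dsc3 EGFP libraries had 21, 10 and 6 counts, and EWS-OCT-4 libraries had 0, 0 and 2. For Dsg3 EGFP libraries had 0, 6 and 19 counts, and EWS-OCT-4 libraries had none. The lines did not overlap for Dsc3 and overlapped for Dsg3. Without the filter both were called lower in edgeR's test (adjusted p = 0.0161 for Dsc3 and 0.0279 for Dsg3), and likewise in DESeq2 (0.0192 and 0.0388). Dsc1 and Dsg4 had 1 count each in all, and Dsg1a, Dsg1b and Dsg1c had none in any library, which allows up to 3 counts per library. Counts in this cluster therefore came almost wholly from its members Dsc2 and Dsg2.

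**Figure D2:**
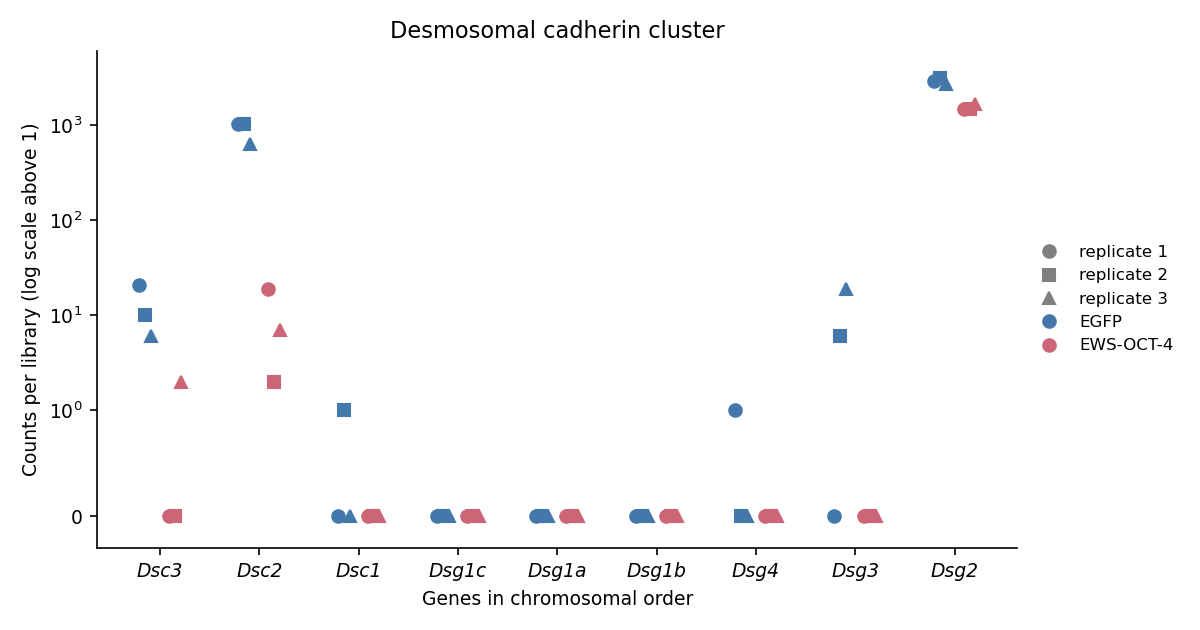
Counts per library (axis logarithmic above 1 and linear below) of the 9 desmosomal cadherin genes in their order along the chromosome, with color for the line and marker shape for the replicate number. Dsc2 and Dsg2 carry nearly all counts, and the gap between the lines is wide for Dsc2 (628 to 1018 counts against 2 to 19) and narrow for Dsg2 (2705 to 3107 against 1464 to 1646). Counts are not scaled to library size, and every EGFP library held more counts in all than any EWS-OCT-4 library, so part of each gap is depth.

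Plakoglobin and the plakophilins, the armadillo proteins of the plaque, included the member that rose. Jup encodes plakoglobin, a close relative of β-catenin that binds the cadherin tails. Its level was 267, 270.4 and 192 CPM in the EGFP libraries and 71.9, 65.6 and 29.2 CPM in the EWS-OCT-4 libraries. Replicate 3 was the lowest in each line, and the lines did not overlap. Jup fell from 243 ± 44.4 to 55.5 ± 23.0 CPM, a log2 fold change of -2.13 (SE 0.29, adjusted p = 0.000115).

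Pkp2, the plakophilin of simple epithelia and heart, fell with little scatter between replicates. It stood at 90.8, 91.3 and 90.3 CPM in the EGFP libraries and at 24.3, 25.1 and 27.8 CPM in the EWS-OCT-4 libraries. The SD of Pkp2 was 0.463 CPM for EGFP and 1.84 CPM for EWS-OCT-4, far below the gap between the lines. The log2 fold change was -1.82 (SE 0.13, adjusted p = 1.3e-06).

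Pkp3, a plakophilin of simple and stratified epithelia, was at 60.5, 53.7 and 54.8 CPM in the EGFP libraries and at 21.9, 22.1 and 27.7 CPM in the EWS-OCT-4 libraries. The highest EWS-OCT-4 library, replicate 3, lay well under the lowest EGFP library. Pkp3 fell by 1.24 on the log2 scale (SE 0.15, adjusted p = 5.4e-05).

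Pkp4, which encodes p0071, a relative of p120 catenin found at adherens junctions as well as desmosomes, went the other way. It was at 89.9, 98.4 and 102 CPM in the EGFP libraries and at 157, 152 and 207 CPM in the EWS-OCT-4 libraries. Every EWS-OCT-4 library was above every EGFP library, and EWS-OCT-4 replicate 3 was the highest of all. Pkp4 rose from 96.8 ± 6.33 to 172 ± 30.3 CPM, a log2 fold change of 0.83 (SE 0.15, adjusted p = 0.000564), and 26.2% of tested genes had a higher value. In libraries 1 and 2 of each line alone it was 0.73.

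Pkp1, the plakophilin of suprabasal epidermis, had 1 count in EGFP replicate 1, 2 counts in EWS-OCT-4 replicate 1 and none in the other 4 libraries. Both lines were under the floor, so no difference could be detected at this depth.

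The plakins, which reach from the plaque to the filaments, both fell, by amounts whose difference lay within their errors. Dsp encodes desmoplakin, the plakin that every desmosome needs. It stood at 245, 276 and 142 CPM in the EGFP libraries and at 11.1, 6.83 and 8.98 CPM in the EWS-OCT-4 libraries. EGFP replicate 3 was the lowest of its line, as for Dsc2, and still far above all EWS-OCT-4 libraries. Dsp fell from 221 ± 70.0 to 8.96 ± 2.12 CPM, a log2 fold change of -4.62 (SE 0.28, adjusted p = 4.6e-07), and 3.44% of tested genes had a lower value.

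Ppl encodes periplakin, a plakin best known from the cornified envelope of epidermis that also sits at desmosomes. Its level was 41.0, 40.3 and 39.3 CPM in the EGFP libraries and 2.03, 2.77 and 0.924 CPM in the EWS-OCT-4 libraries. The EGFP libraries were close together, with an SD of 0.837 CPM, and EWS-OCT-4 replicate 3 was the lowest of all. Ppl fell by 4.40 on the log2 scale (SE 0.30, adjusted p = 9.0e-07).

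Perp, a tetraspan membrane protein of desmosomes and a known target of p53 and p63, was at 79.1, 76.8 and 58.6 CPM in the EGFP libraries and at 21.8, 24.7 and 21.0 CPM in the EWS-OCT-4 libraries. The EWS-OCT-4 libraries spanned a narrow range well below the lowest EGFP library. Perp fell by 1.67 on the log2 scale (SE 0.16, adjusted p = 1.1e-05).

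**Figure D3:**
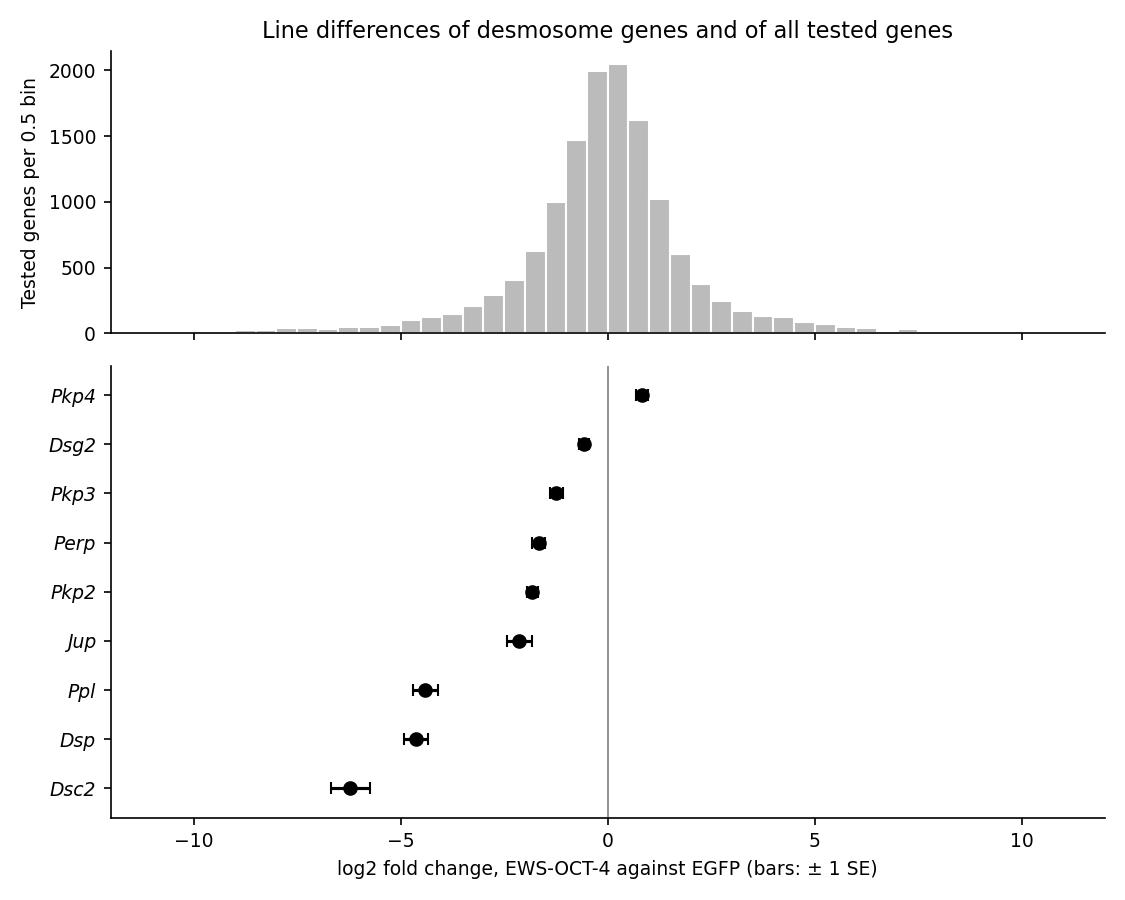
Upper panel, number of tested genes in each 0.5-wide bin of the log2 fold change of the EWS-OCT-4 against the EGFP line. Lower panel, the log2 fold change ± 1 SE of the 9 tested desmosome genes on the same axis, where Dsc2 (-6.21), Dsp (-4.62) and Ppl (-4.40) lie in the left tail, Jup, Pkp2, Perp and Pkp3 between -2.13 and -1.24, Dsg2 at -0.58 and Pkp4 at 0.83.

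Ordered by fold change, the members ran Dsc2, Dsp, Ppl, Jup, Pkp2, Perp, Pkp3, Dsg2 and Pkp4. Neighbours whose intervals of ± 1 SE overlapped were Dsp and Ppl, Jup and Pkp2, and Pkp2 and Perp. The widest gap between neighbours lay between Ppl (-4.40) and Jup (-2.13). To ask whether related genes moved by the same amount, log2 ratios of counts (plus 0.5) were taken within each library, so that scaling and gene length drop out of the difference between lines. An exact permutation test over 3 against 3 libraries, 2-sided, cannot give p under 0.1, and 7 pairs were compared, so none could pass 0.05.

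Pkp4, the plakophilin that rose, separated from Pkp2. Their ratio was -0.014, 0.11 and 0.18 on the log2 scale in EGFP libraries, against 2.69, 2.60 and 2.89 in EWS-OCT-4 libraries, a shift of 2.64 or 6.22-fold (exact p = 0.1, adjusted over the 7 pairs 0.117). The lines did not overlap in this ratio. Pkp3 shifted against Pkp2 by 0.58, from a mean of -0.69 ± 0.093 to -0.11 ± 0.096, and these libraries did not overlap either (exact p = 0.1, adjusted 0.117).

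Between the cadherins the ratio of Dsg2 to Dsc2 was 1.51, 1.61 and 2.11 in EGFP libraries, against 6.23, 9.20 and 7.78 in EWS-OCT-4 libraries (shift 5.99, exact p = 0.1, adjusted 0.117). The EWS-OCT-4 values ranged widely, and Dsc2 had 19, 2 and 7 counts there. The shift was 6.75 without EWS-OCT-4 replicate 1 and 5.26 without EWS-OCT-4 replicate 2. Pkp2 was higher relative to Dsp by 2.77, with ratios of -1.43, -1.60 and -0.66 in EGFP libraries, against 1.13, 1.87 and 1.62 in EWS-OCT-4 libraries (exact p = 0.1, adjusted 0.117). The ratio changed sign between the lines.

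The ratio of Ppl to Dsp was the one pair that overlapped between the lines. It was -2.58, -2.78 and -1.85 in EGFP libraries, against -2.42, -1.29 and -3.22 in EWS-OCT-4 libraries, a shift of 0.09 (exact p = 0.9, adjusted 0.9). Its sign changed on leaving out EGFP replicate 2 (-0.09) or EWS-OCT-4 replicate 2 (-0.42), and it was 0.82 in replicates 1 and 2 of each line alone, so unequal falls of these plakins were not detectable, which does not show that they fell equally.

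Plakoglobin and desmoplakin were also set against genes of the adherens junction. The ratio of Jup to Ctnnb1, the gene of β-catenin, was -2.02, -2.01 and -2.58 in EGFP libraries, against -3.29, -3.43 and -4.74 in EWS-OCT-4 libraries (shift -1.62, exact p = 0.1, adjusted 0.117). Dsp against Cdh1, the gene of E-cadherin, shifted by -3.64, from a mean of -2.46 ± 0.44 to -6.11 ± 0.32 (exact p = 0.1, adjusted 0.117). Neither ratio overlapped between the lines.

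**Figure D4:**
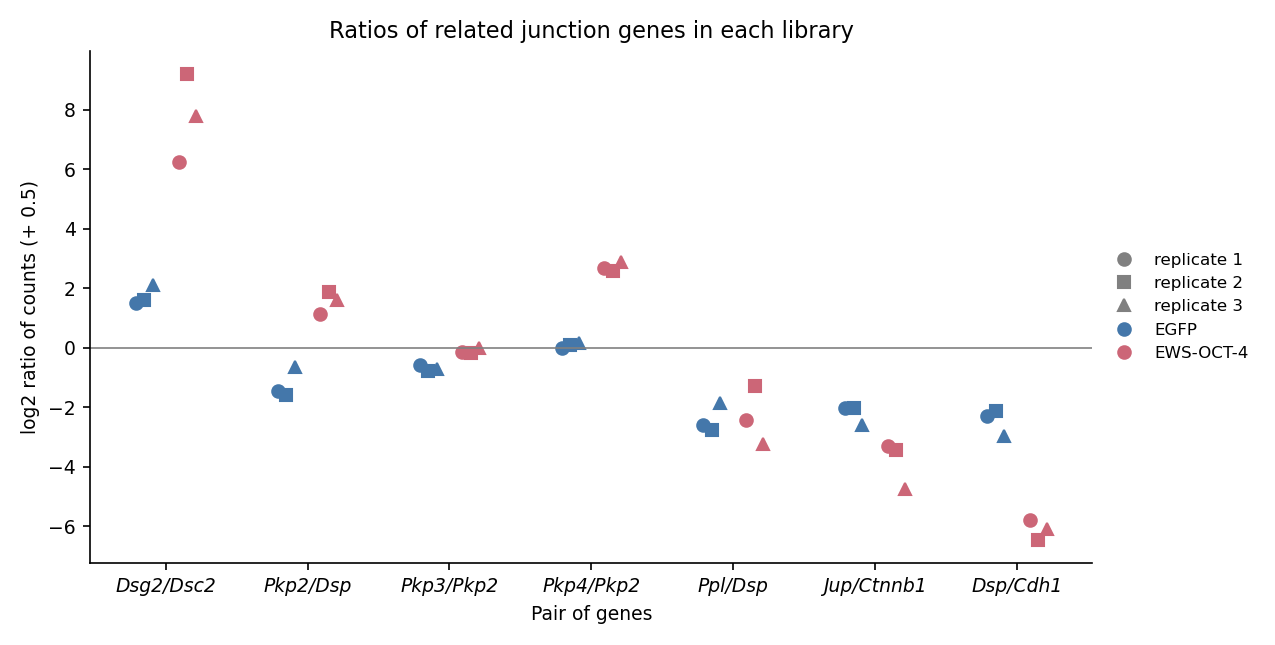
Log2 ratio of counts (plus 0.5) for 7 pairs of junction genes in each library, with color for the line and marker shape for the replicate number. The lines are apart for every pair except Ppl/Dsp, where EGFP (-2.78 to -1.85) and EWS-OCT-4 (-3.22 to -1.29) values overlap.

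Within the EGFP line the members split in the library that stood apart. In EGFP replicate 3 the level was 0.546 of the mean of replicates 1 and 2 for Dsp, 0.555 for Dsc2, 0.714 for Jup, 0.752 for Perp and 0.809 for Dsg2. Pkp2 (0.993), Ppl (0.968), Pkp3 (0.959) and Pkp4 (1.09) were within 10% of that mean. Trophoblast markers summed to 1997 CPM in that library and to 2221 and 2175 CPM in replicates 1 and 2, and stem cell markers to 331 against 267 and 270.5 CPM. Whether these shifts have a part in the lower values was not tested.

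Other members were low in EWS-OCT-4 replicate 3. There Ppl was at 0.385 and Jup at 0.425 of the mean of replicates 1 and 2 of that line, while Dsp was at 1.00, Dsg2 at 1.02, Pkp3 at 1.26 and Pkp4 at 1.34. Dsc2, with 7 counts there, lay between replicates 1 and 2. With both libraries numbered 3 left out, the same counts of 8 lower and 1 higher member were obtained, with log2 fold changes of -4.84 for Dsp, -6.21 for Dsc2, -1.95 for Jup and -0.66 for Dsg2.

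The genes whose profile over the 6 libraries was most like that of Dsp were not desmosome genes. Likeness was the root mean square difference between log2 CPM profiles (plus 0.1), each centred on its own mean, among the 8924 genes whose mean reached 10 CPM. Among the nearest were Snap91, which encodes a clathrin assembly protein (0.153), and Slc1a1, which encodes a glutamate transporter (0.155). Snap91 was at 114, 121 and 72.8 CPM in the EGFP libraries and at 6.46, 3.79 and 4.95 CPM in the EWS-OCT-4 libraries, and EGFP replicate 3 was the lowest of its line, as for Dsp. Among the members the nearest to Dsp were Ppl (0.616) and Dsc2 (1.09), and the farthest was Pkp4 (2.73). With 2 lines of 3 libraries, this measure mostly follows the size of the difference between the lines.

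Gene models were taken from GENCODE M21. Dsp lies on chromosome 13 at 38151294 to 38198577 (plus strand), Jup on chromosome 11 at 100368958 to 100397763 (minus strand) and Ppl on chromosome 16 at 5086291 to 5132421 (minus strand). Pkp1 lies on chromosome 1 at 135871395 to 135919207 (minus), Pkp2 on chromosome 16 at 16213318 to 16272712 (plus), Pkp3 on chromosome 7 at 141078218 to 141090510 (plus) and Pkp4 on chromosome 2 at 59160850 to 59355208 (plus). Perp, with 3 exons, lies on chromosome 10 at 18845020 to 18857073 (plus). The members that fell thus lie on 5 chromosomes besides that of the cadherin cluster. Exons on the opposite strand overlap Dsg2 (Gm16090, within its last 1000 bases) and Dsp (Gm10129). Whether strand was used in the counting is not given in the sources used here, so reads of these partners cannot be told apart from reads of Dsg2 and Dsp.

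Promoter windows of 300 bases (250 before to 50 after a RefSeq start, GRCm38.p6) are given for 3 of the 10 members. These are 2 that fell (Dsp, Jup) and the 1 that rose (Pkp4, with 2 starts). No window is given for the other members, among them both cadherins and so Dsc2, the member with the largest fall. The windows of the 3 are printed to set the promoters of members with opposite changes side by side. Capitals mark CACCTG, an E-box of the kind bound by ZEB and SNAIL repressors, and CCAAT, each on either strand (also CAGGTG and ATTGG). The windows are Dsp chr13:38151044-38151343 (plus strand), Jup chr11:100397741-100398040 (minus strand), and Pkp4 chr2:59160600-59160899 and chr2:59161619-59161918 (plus strand).
Dsp: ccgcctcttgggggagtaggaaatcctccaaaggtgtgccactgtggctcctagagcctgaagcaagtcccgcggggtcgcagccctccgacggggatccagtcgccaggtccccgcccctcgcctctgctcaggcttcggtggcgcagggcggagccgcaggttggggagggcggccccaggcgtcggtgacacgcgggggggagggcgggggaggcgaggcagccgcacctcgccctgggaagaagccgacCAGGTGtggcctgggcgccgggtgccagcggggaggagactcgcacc
Jup: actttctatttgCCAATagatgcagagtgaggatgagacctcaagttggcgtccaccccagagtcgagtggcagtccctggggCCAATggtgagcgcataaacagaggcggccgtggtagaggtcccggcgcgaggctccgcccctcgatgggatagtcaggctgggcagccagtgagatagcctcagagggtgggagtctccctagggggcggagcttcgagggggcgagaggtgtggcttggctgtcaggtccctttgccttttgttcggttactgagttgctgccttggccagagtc
Pkp4 start 1: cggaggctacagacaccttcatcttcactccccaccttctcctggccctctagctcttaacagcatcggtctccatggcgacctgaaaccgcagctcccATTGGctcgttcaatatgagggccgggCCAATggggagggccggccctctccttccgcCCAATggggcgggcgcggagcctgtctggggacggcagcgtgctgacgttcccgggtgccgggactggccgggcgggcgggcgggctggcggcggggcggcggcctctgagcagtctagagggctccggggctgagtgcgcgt
Pkp4 start 2: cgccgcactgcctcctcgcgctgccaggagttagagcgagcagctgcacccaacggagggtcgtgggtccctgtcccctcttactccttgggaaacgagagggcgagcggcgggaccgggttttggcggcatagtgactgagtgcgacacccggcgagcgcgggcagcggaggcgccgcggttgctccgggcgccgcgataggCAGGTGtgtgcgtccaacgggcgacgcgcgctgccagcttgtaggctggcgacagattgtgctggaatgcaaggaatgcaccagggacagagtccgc
The E-box was found once in the Dsp window, 4 bases into the transcript, once in the window of the second Pkp4 start, at -47, and not in the Jup window or that of the first Pkp4 start. Of all 32851 windows of this length, 20.2% hold it. CCAAT was found in the Jup window at -238 and -167 and in the first Pkp4 window at -151, -124 and -93, and 37.4% of all windows hold it. The GC box GGGCGG (or CCGCCC), left in lower case, was counted 4 times in the Dsp window, 2 times in Jup, 6 times in the first and 0 times in the second Pkp4 window, with some of the 6 overlapping each other or a CCAAT, and 35.7% of all windows hold it. No window held the Grainyhead motif AACCNGTT on either strand, which 2.09% of all windows hold. GC content was 73.0% for Dsp, 60.7% for Jup, and 69.3% and 68.0% for Pkp4, against a median of 52.7% over all windows. A match is a string of letters and says nothing of whether a factor binds, and the E-box was present for a gene that fell and for a start of the gene that rose.

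Keratins are the filaments to which desmoplakin anchors. In a list of 8 intermediate filament genes, 7 were tested, of which 5, all keratins, fell and 2 rose, with a median log2 fold change of -7.21. The shares over all tested genes were 34.1% lower and 33.3% higher. Krt8, which pairs with Krt18 in simple epithelia, had a log2 fold change of -7.21 (SE 0.23, adjusted p = 1.6e-08). Krt18 was 257-fold lower, and the log2 fold changes of Krt19 and Krt7 were -7.68 and -8.29. Krt8 stood at 1919, 1860 and 1492 CPM in the EGFP libraries and at 15.3, 11.3 and 9.07 CPM in the EWS-OCT-4 libraries, so that EGFP replicate 3 was the lowest of its line here too. Krt7 is also in the trophoblast list. Without EWS-OCT-4 replicate 1, the log2 fold change was -10.56 for Krt7 and -8.52 for Krt19. The 2 that rose were, named after their values were seen, Vim (1.54) and Des (2.71), the filament genes of mesenchyme and muscle. Of the epidermal keratins in the list of stratified epithelium, also named after their values were seen, Krt14 and Krt1 fell and Krt10 rose. Krt14, also 1 of the 5 above, went from 8.73 ± 4.60 to 0.271 ± 0.101 CPM (log2 fold change -4.97, adjusted p = 5.7e-05). Krt1 had a log2 fold change of -4.36 (adjusted p = 0.00142), which rested on 61 counts for EGFP and 2 for EWS-OCT-4. The log2 fold change of Krt10 was 0.97 (adjusted p = 0.0047). Krt5 was not tested.

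The remaining desmosome and cornified envelope genes were mostly near 0 counts. Of 13 listed, 5 were tested, of which 2 fell, 1 rose and 2 did not pass, with a median of -0.76. Among all tested genes 34.1% fell and 33.3% rose. Kazn, whose product kazrin binds periplakin, fell from 64.1, 69.3 and 48.3 CPM to 28.7, 29.1 and 18.9 CPM (log2 fold change -1.25, SE 0.21), and Eppk1, a keratin-binding plakin, from 21.5 ± 3.56 to 6.84 ± 2.52 CPM. Evpl, the envelope partner of periplakin, went from 5.39 ± 1.69 to 3.18 ± 0.671 CPM and did not pass (adjusted p = 0.0826), although it passed without EGFP replicate 3 (0.0201), within a range of 0.0104 to 0.261 over its alternatives. Cdsn, which encodes corneodesmosin, rose from 3.14 ± 0.862 to 6.47 ± 1.65 CPM, with an adjusted p of 0.0196. That call was lost when EGFP replicate 1 or 2, or EWS-OCT-4 replicate 1 or 3, was left out (0.0523 to 0.0752), and over all alternatives the range was 0.0129 to 0.0799.

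Adherens junction genes were lower as well. Of 8 listed, 7 were tested and 6 fell, with a median of -0.95, while 34.1% of all tested genes fell. Cdh1 fell from 1174 ± 58.1 to 609 ± 9.83 CPM (log2 fold change -0.95, SE 0.10, adjusted p = 2.3e-05) and Ctnnb1 from 1106 ± 33.2 to 730 ± 42.9 CPM (-0.60, SE 0.11). P-cadherin (Cdh3) fell by 4.34 on the log2 scale, p120 catenin (Ctnnd1) by 2.74 and vinculin (Vcl) by 1.65. Afadin, listed in the files as Mllt4 and named after its values were seen, was at 251 ± 3.62 and 257 ± 3.53 CPM and did not pass (adjusted p = 0.781). Tested against a change of 1.5-fold, Ctnnb1 did not pass (adjusted p = 0.339, the highest of 15 alternatives, of which the lowest was 4.8e-09).

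**Figure D5:**
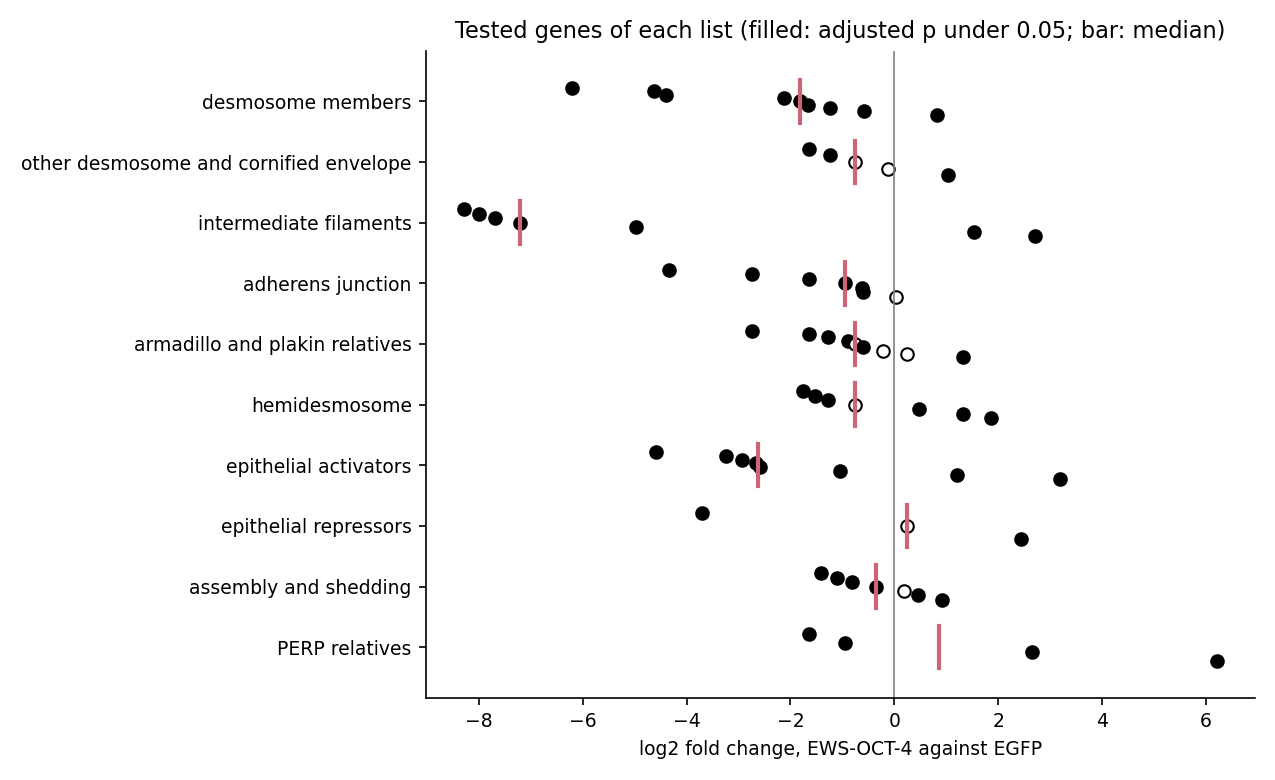
Log2 fold change of each tested gene (1 point per gene; filled where adjusted p was under 0.05, open where not) for the desmosome members and 9 other lists, with a colored bar at the median of each list. Medians are -1.82 for the desmosome members, -7.21 for intermediate filaments, -0.95 for the adherens junction and -0.75 for hemidesmosomes.

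Armadillo and plakin relatives other than the members moved in both directions. Of 9 tested, 5 fell, 1 rose and 3 did not pass, against 34.1% lower and 33.3% higher over all tested genes. The median was -0.76. The list shares genes with others: Ctnnb1, Ctnnd1, Evpl and Eppk1 were also counted in the lists above, and Plec and Dst among the hemidesmosome genes below. Dst, the gene of dystonin, a plakin of hemidesmosomes and of the cytoskeleton, rose from 81.5 ± 8.53 to 204 ± 43.8 CPM (log2 fold change 1.32, SE 0.17, adjusted p = 5.9e-05). Hemidesmosome genes, which tie keratin to the basement membrane, also went both ways (median -0.75). Of 7 tested, 3 were higher and 3 lower, against 33.3% and 34.1% of all tested genes. Integrin β4 (Itgb4) fell from 38.8 ± 5.46 to 11.5 ± 1.79 CPM and Cd151 from 145 ± 22.5 to 50.2 ± 7.20 CPM.

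Transcription factors that are known to promote epithelial genes were mostly lower. Of 8 tested, 6 fell and 2 rose, against 34.1% and 33.3% of all tested genes, with a median of -2.63. Ovol2 stood at 98.9, 96.2 and 90.5 CPM in the EGFP libraries and at 6.09, 4.89 and 1.01 CPM in the EWS-OCT-4 libraries (log2 fold change -4.59, SE 0.42, adjusted p = 6.8e-06). Elf3 fell by 3.24 and Grhl2 by 2.59 on the log2 scale, and none of these 3 overlapped between the lines. Klf4, which also belongs to the pluripotency network, rose from 34.9 ± 1.25 to 319 ± 18.7 CPM. Klf5, named after its values were seen, rose by 1.20 on the log2 scale, from 1223 ± 65.2 to 2819 ± 159 CPM. Klf5 made up most of the summed level of this list. That sum was higher in the EWS-OCT-4 libraries (3078 to 3329 CPM) than in the EGFP libraries (1612 to 1759 CPM). Trp63, the gene of p63, had 7 counts in the EGFP line and none in the EWS-OCT-4 line and was not tested.

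Of 3 tested repressors of epithelial genes, 1 rose, 1 fell and 1 did not pass, and without EGFP replicate 1 the count that rose was 2. Among all tested genes 33.3% rose and 34.1% fell, so these counts do not set the list apart. Zeb1 rose from 6.52 ± 1.08 to 35.5 ± 6.35 CPM (log2 fold change 2.44, SE 0.21, adjusted p = 4.1e-06), and Snai1 fell from 23.9 ± 3.26 to 1.83 ± 0.917 CPM (-3.71, SE 0.32). Snai2 was near the floor, at 0.868 ± 0.327 and 1.03 ± 0.422 CPM, and did not pass. Zeb2, with 8, 11 and 7 counts for EGFP and 6, 2 and 12 for EWS-OCT-4, was not tested.

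Genes of desmosome assembly and shedding went both ways. Of 7 tested, 4 fell, 2 rose and 1 did not pass, with a median of -0.36. Of all tested genes, 34.1% fell and 33.3% rose. The count of 4 was 2 without EGFP replicate 1, EGFP replicate 2 or EWS-OCT-4 replicate 2. The protease gene Adam10, whose product sheds desmosomal cadherins, fell from 52.1 ± 2.69 to 19.7 ± 4.03 CPM (log2 fold change -1.41, SE 0.18), and the calcium pump gene Atp2a2 rose from 187 ± 23.0 to 352 ± 64.8 CPM. Prkca, a kinase that loosens desmosomes, went from 7.95 ± 2.50 to 3.69 ± 1.71 CPM with overlapping libraries, and its call as lower (adjusted p = 0.0319) was lost when EGFP replicate 1 or 2, or EWS-OCT-4 replicate 2 or 3, was left out (0.0617 to 0.0989), within a range of 0.00228 to 0.0989 over all alternatives.

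Genes around Perp went in different directions. Of its upstream factors, Trp53, the gene of p53, stood at 25.4, 23.4 and 23.2 CPM in the EGFP libraries and at 199, 184 and 72.0 CPM in the EWS-OCT-4 libraries (log2 fold change 2.66, SE 0.32, adjusted p = 5.0e-05). The p53 target Cdkn1a fell from 311 ± 35.8 to 99.1 ± 8.25 CPM, as Perp did. Tmem47, a relative of Perp, rose from 0.18 ± 0.13 to 14.4 ± 2.41 CPM. It rested on 1, 2 and 5 counts for EGFP, and its log2 fold change of 6.21 was 6.92 without EGFP replicate 3. In this list of 5, 2 of 4 tested genes rose and 2 fell, against 33.3% and 34.1% of all tested genes.

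Markers of stratified epithelium and cardiac muscle, other tissues rich in desmosomes, left few tags. Of 7 markers of stratified epithelium, Ivl and Lor had no count in any library, and the list summed to 10.6 to 18.5 CPM in the EGFP libraries and 9.91 to 12.2 CPM in the EWS-OCT-4 libraries. Within these sums the fall of Krt14 and the rise of Krt10 partly offset each other. Cardiac muscle markers summed to 6.56 to 7.09 and 3.32 to 4.95 CPM. Fibroblast or feeder markers summed to 14.8 to 17.3 and 24.9 to 32.8 CPM. Of the 6 tested in that list, 2 (Thy1 and Pdgfrb) were higher, 1 (Postn) was lower and 3 did not pass. Thy1 was the largest part of the EWS-OCT-4 sum, with a mean of 17.9 CPM there and 0.636 CPM for EGFP. Postn had a mean of 9.16 CPM for EGFP and 0 counts in the EWS-OCT-4 line. Primitive endoderm markers summed to 104 to 123 and 4.79 to 5.44 CPM. Of the 6 primitive endoderm markers 4 were tested, of which 3 fell and Gata4 rose (log2 fold change 3.80). Dab2 (mean 79.5 CPM for EGFP, 1.53 CPM for EWS-OCT-4) and Gata6 (31.2 and 1.07 CPM) made up most of the EGFP sum. The primitive endoderm sum, though not every marker in it, thus also moved in the direction of most desmosome genes. Its part in their difference was not tested.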

How the data were processed

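The 6 libraries were made with a Lexogen QuantSeq kit from 500 ng of total RNA, per the labels' protocols, and read transcript 3′ ends. The authors deposited raw counts, whole numbers for each gene symbol. The submitters' processing notes name Bowtie2, edgeR and mm10. Which tool and gene models gave the counts, and whether strand mattered, is not given in the sources used here. Lines were grouped by sample title, and the 35 symbols with several rows were summed.

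Counts were scaled by TMM (factors 0.971 to 1.03), kept where edgeR's filterByExpr passed them (count 10, total 15 at least), and tested line against line in edgeR 4.0.16 (robust quasi-likelihood F test, 2-sided, Benjamini-Hochberg over 13467 genes, threshold 0.05). SE is the log2 fold change divided by the square root of F. Ratios of genes were compared by exact permutation in scipy 1.17.1. Floors cover counting error only.

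On simulated data for 13246 genes the test recovered 63.3% of genes changed 2-fold and 84.4% of those changed 4-fold, with 6.54% of calls false; a data set in which most genes change was not simulated. The members and lists were chosen with earlier results of these data known, and the promoter motifs after them. The rule named all members, up to 3 called genes per list with the largest change, and a set of paralogs and partners. Alternatives were leaving out each library, libraries 1 and 2 alone, a replicate block, DESeq2 size factors, removal of Rn45s, no filter, limma-voom (limma 3.58.1), a 1.5-fold minimum change in the test, DESeq2 1.42.0, and an adjusted p of 0.01. Whether same-numbered libraries of the lines shared more than a number is not given in the sources used here. Some genes that the naming rule covers are not reported here.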

Additional observations from a re-analysis of the deposited data

How the results depend on the processing

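The count of 8 lower and 1 higher desmosome genes was obtained under every alternative tried except the test against a 1.5-fold change, where 7 were lower because Dsg2 did not pass. Of 135 values of the 9 tested members under 15 alternatives, 134 kept direction and call. Over all genes, 9073 passed, and between 6399 (test against a 1.5-fold change) and 10240 (libraries 1 and 2 alone) passed under the alternatives. The replicate block gave 8968 calls over all genes, a member median of -1.82 and no changed call among the members. Same-numbered libraries correlated at 0.040, 0.052 and 0.15 in their deviations from the line mean, and not every library correlated best with its own number, so the numbers were not taken as pairs. EGFP replicate 3 correlated at -0.090 and -0.10 with EWS-OCT-4 replicates 1 and 2. EWS-OCT-4 replicate 3 correlated at -0.091 and -0.10 with EGFP replicates 1 and 2. Whether the libraries numbered 3 had a batch in common was not tested. The member median stayed between -1.86 and -1.77. The ratio of Ppl to Dsp lay between -0.42 and 0.55 with 1 library left out. Of other named genes, 504 of 524 values kept direction and call. Snai2 changed sign without EGFP replicate 1 (-0.032) and without EWS-OCT-4 replicate 3 (-0.15), within -0.15 to 0.51 with 1 library left out, and Ewsr1, not otherwise described, was at 0.063 in libraries 1 and 2 alone against -0.26. The cause was not tested. Counts over the lists were recomputed under these settings after seeing the data. Without the filter, and in DESeq2, 4 of the other desmosome and cornified envelope genes were lower in place of 2, the added ones being Dsc3 and Dsg3. Against a 1.5-fold change, 3 armadillo and plakin relatives were lower in place of 5, and 2 assembly and shedding genes in place of 4. Depth limits Pkp1, which was not called without the filter (adjusted p = 0.667), and the low genes of the cadherin cluster.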
